A study of Zea mays with 3 samples.

Results

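The genes described here code for glutamine synthetase and glutamate synthase, which together bring ammonium into amino acids. They are 9 of the 39219 genes on the maize array, taken from a fixed list of gene identifiers, and every transcript isoform of each was used, which gave 19 of 59756 transcripts and 43 of 139000 probes. RNA came from roots of PR33T56 maize in the Urea+NBPT treatment, that is 0.5 mM urea with 0.897 μM NBPT, an inhibitor of urease, for 8 h, starting from plants 5 days old. The 3 replicates were separate pools of 6 plants from repeated experiments, hybridized to NimbleGen arrays on 1 slide. The labels call PR33T56 a hybrid and the study's methods call it an inbred line, while the array was designed on transcripts of the B73 line. All arrays carry the same treatment, so no comparison with roots in urea alone or without nitrogen was made here, and the question that these data answer is which of the genes gave a signal and how far the replicate pools differed.

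Glutamine synthetase joins ammonium to glutamate and uses ATP to form glutamine. Glutamate synthase, also called GOGAT, then transfers the amide nitrogen of glutamine to 2-oxoglutarate and yields a pair of glutamate molecules, with electrons from ferredoxin or from NADH. The plastid form GS2 is known mainly for leaves, while in maize several cytosolic GS1 genes serve roots, vascular tissue and seeds. In urea-fed plants part of the ammonium that these enzymes can use is released from urea by urease.

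The reference gene table pairs 6 of the 9 identifiers with names. GRMZM2G098290 is gs2, the plastid glutamine synthetase. The GS1 genes are GRMZM2G024104 (gs1-2), GRMZM2G046601 (GS1-5), GRMZM2G050514 (GS1-1) and GRMZM5G872068 (gs1-3). Older gln symbols overlap in this table, and gln2 is given both to gs2 and to gs1-2, so the names used here are the gs names with their identifiers. GRMZM2G036609 is fgs1, the ferredoxin-dependent glutamate synthase. GRMZM2G077054, GRMZM2G085078 and GRMZM2G375064 are on the list as glutamate synthases, and the sources used here do not say which of them uses ferredoxin and which NADH.

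The deposited intensities had the same median, 550, on each array, and intensities of equal rank lay within 0.183% of each other, so the arrays appear to have been normalized before deposit. A level is the normalized log2 intensity of a transcript over its 2 or 3 probes. A transcript was called detected when its level lay above 95% of the 1663 random control probes in every array, a threshold of 8.24, 8.30 and 8.24 in replicates 1, 2 and 3. Probes bind with different strength, so levels of different transcripts are not set against each other. Over all transcripts the arrays correlated at 0.978 to 0.990, and replicate 2 stood apart most often. The root markers rth3, a gene needed for root hair growth, and rtcs, a gene needed for crown and seminal roots, were detected in 4 of 4 transcripts. Of 11 transcripts of leaf photosynthesis genes 5 were detected, and all 6 of the Rubisco small subunit and Rubisco activase lay below the threshold in every array.

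Of the 19 transcripts, 17 were detected in Urea+NBPT roots, which is 89.5%, against 62.6% of all transcripts on the array. They belonged to 8 of the 9 genes, and 13 of 14 glutamine synthetase and 4 of 5 glutamate synthase transcripts were among them. In root RNA a lower signal from fewer cells of a type cannot be told apart from less RNA in each cell. The members were chosen with earlier results of these arrays known, so the share is given as a description without a test. With a threshold above 99% of the control probes, 16 of the 19 were detected, against 47.4% of the array.

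**Figure D1:**
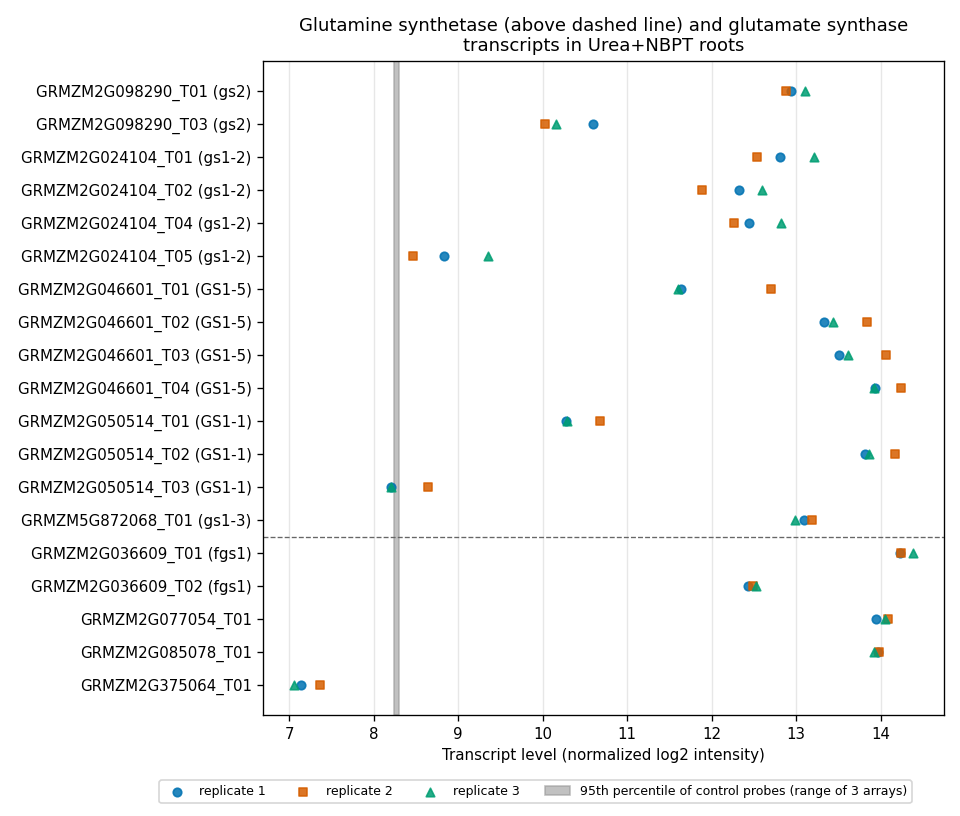
Level of each glutamine synthetase and glutamate synthase transcript (normalized log2 intensity, horizontal axis) in the 3 replicates of Urea+NBPT roots, 1 point per array, with the threshold from the random control probes (95th percentile) as a grey band from 8.24 to 8.30. GRMZM2G375064_T01 lies left of the band in all replicates and GRMZM2G050514_T03 lies right of it only in replicate 2, while the other 17 transcripts lie right of it.

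The plastid gene gs2 was detected through both of its transcripts. GRMZM2G098290_T01 had levels of 12.94, 12.88 and 13.10 in replicates 1, 2 and 3, a mean of 12.97 ± 0.11 (SD, n = 3). GRMZM2G098290_T03 had 10.60, 10.03 and 10.16, a mean of 10.26 ± 0.30 (SD, n = 3). The first transcript varied little, and in the second replicate 1 was high, by 0.51 over the other replicates. In deposited intensities all 5 probes of gs2 were lowest in replicate 2, which was so in 4.84% of the array's genes with 5 probes. The 3 probes of GRMZM2G098290_T03 start close together, at positions 1527, 1539 and 1553 of the transcript, so they are not separate measurements. Their intensities in replicate 1 were 1069, 1540 and 1952, against 765 to 1305 in replicate 2 and 866 to 1429 in replicate 3. Among the leaf photosynthesis genes replicate 1 was also high in pyruvate orthophosphate dikinase, an enzyme of C4 photosynthesis that maize also makes outside green tissue, with 14.57, 13.41 and 13.57 for GRMZM2G306345_T01. The other detected leaf genes did not share this, with 11.15, 10.92 and 11.15 for PEP carboxylase (GRMZM2G083841_T01) and 8.76, 8.59 and 8.92 for NADP malic enzyme (GRMZM2G085019_T01). The summed intensity of the 26 probes of all the leaf genes was 174980, 106112 and 109478 in replicates 1, 2 and 3. Pyruvate orthophosphate dikinase weighs most in this sum, as its transcripts had the highest mean levels of the set, 13.71 to 14.53. The next highest was PEP carboxylase at 11.07, so the sum does not describe the other leaf genes. Whether pyruvate orthophosphate dikinase and gs2 moved together for a shared cause was not tested.

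The cytosolic gene gs1-2 (GRMZM2G024104) was detected through all 4 of its transcripts and was highest in replicate 3 in each. GRMZM2G024104_T01 had levels of 12.81, 12.53 and 13.21 in replicates 1, 2 and 3, a mean of 12.85 ± 0.34 (SD, n = 3). Replicate 3 exceeded the mean of the other arrays by 0.55, and replicate 2 was the lowest. GRMZM2G024104_T02 and GRMZM2G024104_T04 followed the same order, with means of 12.27 ± 0.36 and 12.51 ± 0.28 (SD, n = 3). GRMZM2G024104_T05 had 8.83, 8.47 and 9.35, a mean of 8.88 ± 0.45 (SD, n = 3), close to the control probes. It was not detected at the 99th percentile of the control probes, and of its 3 probes, which start at positions 1, 29 and 53, the first lay below the 95th percentile in every array.

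All 9 probes of gs1-2 had their highest intensity in replicate 3, and 8 of them their lowest in replicate 2. Intensities in replicate 3 were 1.31 to 2.35 times those in replicate 2, with a median of 1.66. The 2.35 came from the probe at position 1 of GRMZM2G024104_T05, which lay below the control threshold in every array. In the 8 probes above the threshold in all arrays the ratio reached 1.9. The probe at position 1226 of GRMZM2G024104_T01, for example, gave 5645, 4118 and 7843. Of the 2107 genes with 7 to 9 probes on the array, 0.759% were highest in replicate 3 in every probe. The replicate was not named beforehand, and 3.94% of these genes had all probes highest in the same replicate, whichever it was. Isoforms of a gene share much of their sequence and can share RNA that binds both, so the probes of a gene are not independent. Signal in a probe therefore does not show which isoform was present.

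The cytosolic gene GS1-5 (GRMZM2G046601) was detected through all 4 of its transcripts and was highest in replicate 2 in each. GRMZM2G046601_T01 had levels of 11.64, 12.70 and 11.60 in replicates 1, 2 and 3, a mean of 11.98 ± 0.62 (SD, n = 3). Replicates 1 and 3 lay close together and replicate 2 was 1.08 above their mean. This was the single transcript of the 19 with over 2-fold between its highest and lowest replicate, against 5.02% of all transcripts. It was also the single one in which an array exceeded the other arrays' mean by more than 1. Of all 59756 transcripts this was so in 136 for replicate 1, 1350 (2.26%) for replicate 2 and 270 for replicate 3. With replicate 2 left out, 0 of the 19 transcripts ranged over 2-fold, and the share of the whole array fell to 1.09%. A range over fewer arrays can hardly be wider, and the share also fell without replicate 1 (3.56%) and without replicate 3 (3.22%).

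The other transcripts of GS1-5 showed replicate 2 high by less. GRMZM2G046601_T02 had a mean of 13.54 ± 0.27, GRMZM2G046601_T03 of 13.73 ± 0.29 and GRMZM2G046601_T04 of 14.03 ± 0.18 (SD, n = 3). In these replicate 2 exceeded the mean of the other arrays by 0.46, 0.50 and 0.32. In deposited intensities all 8 probes of the gene were highest in replicate 2, at 1.05 to 2.25 times the mean of the other replicates, with a median of 1.46. Of the genes with 7 to 9 probes, 1.33% were highest in replicate 2 in every probe, and 3.94% in any same replicate. The ratio of 2.25 came from the probe at position 1 of GRMZM2G046601_T01, with intensities of 2274, 5496 and 2602. The ratio of 1.05 came from the probe at position 84 of GRMZM2G046601_T04, with 51522, 56205 and 55656.

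**Figure D2:**
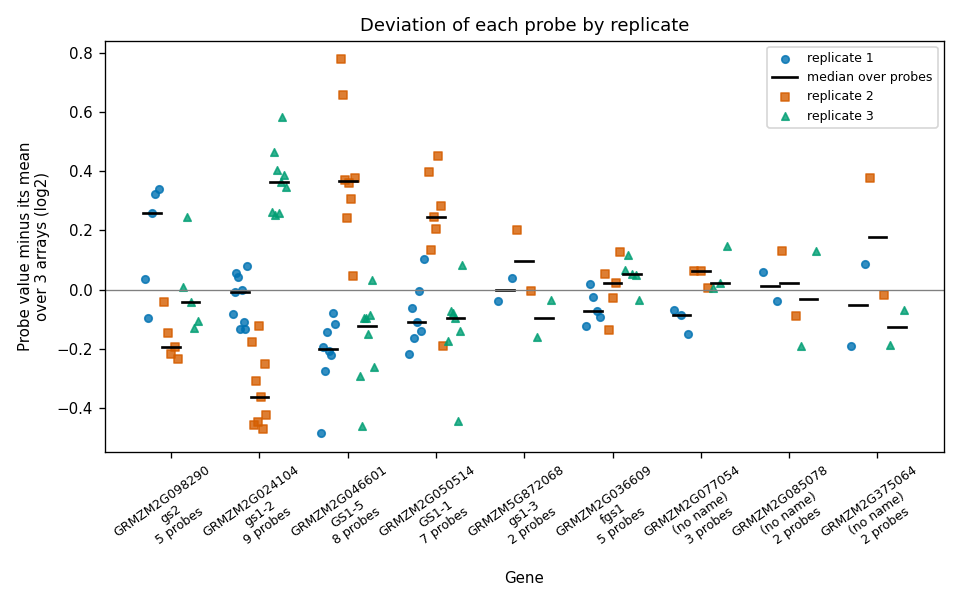
Log2 value of each probe minus its own mean over the 3 arrays (vertical axis), for each of the 9 genes, with 1 point per probe and replicate and a bar at the median over probes. All 9 probes of gs1-2 are highest in replicate 3 and all 8 probes of GS1-5 are highest in replicate 2.

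The cytosolic gene GS1-1 (GRMZM2G050514) was detected through 2 of its 3 transcripts, and replicate 2 was highest in all of them. GRMZM2G050514_T01 had levels of 10.27, 10.68 and 10.29, a mean of 10.42 ± 0.23 (SD, n = 3). GRMZM2G050514_T02 had a mean of 13.94 ± 0.20 (SD, n = 3), and replicate 2 lay 0.34 above the others. Replicates 1 and 3 nearly coincided in both. Of the 2 probes of GRMZM2G050514_T01, that at position 45 gave 5890, 9041 and 6072, while that at position 1452 gave 243, 281 and 241 and lay below the control threshold in every array. GRMZM2G050514_T03 had 8.21, 8.64 and 8.21 and lay above the threshold in replicate 2 only. Its 3 probes start at positions 1, 2 and 3 and so read nearly the same bases. Over the whole gene 6 of 7 probes were highest in replicate 2, against 35.1% of all probes on the array. Only 3 of the 7 lay above the control threshold in all arrays.

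The cytosolic gene gs1-3 (GRMZM5G872068) has 1 transcript on the array, which had levels of 13.09, 13.19 and 12.99 in replicates 1, 2 and 3. Its mean was 13.09 ± 0.10 (SD, n = 3), the smallest SD among the glutamine synthetases. Its probe at position 180 gave intensities of 25893, 30590 and 23773 and that at position 1410 gave 2910, 2822 and 2765, so that the probes did not share a highest replicate.

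The cytosolic genes thus did not share a replicate order. In gs1-2 replicate 2 was the lowest and replicate 3 the highest, in GS1-5 and GS1-1 replicate 2 was the highest, and in gs1-3 the replicates lay within 0.20 of each other. These orders were noticed in the values and have no test, since each replicate is a single array. Probe sequences were not used here, so binding of a probe to RNA of a related glutamine synthetase gene was not tested.

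Ferredoxin-dependent glutamate synthase fgs1 was detected through both transcripts, and its replicates lay close together before any correction for position on the array. GRMZM2G036609_T01 had levels of 14.23, 14.24 and 14.38 in replicates 1, 2 and 3, a mean of 14.28 ± 0.08 (SD, n = 3). GRMZM2G036609_T02 had 12.48 ± 0.04 (SD, n = 3), with a range of 0.09 that became 0.30 when the local median of each array region was removed. In deposited intensities the highest array was 1.06 to 1.19 times the lowest in the 5 probes of the gene.

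Of the glutamate synthases without a name in the reference table, GRMZM2G077054 and GRMZM2G085078 were detected and GRMZM2G375064 was not. GRMZM2G077054_T01 had levels of 13.94, 14.09 and 14.05, a mean of 14.02 ± 0.08 (SD, n = 3). GRMZM2G085078_T01 had 13.97, 13.98 and 13.92, a mean of 13.96 ± 0.03 (SD, n = 3). The small SD of the latter arose while its 2 probes moved in opposite directions, with 18826, 19806 and 15837 at position 5753 and 13560, 13071 and 15227 at position 6761. GRMZM2G375064_T01 had 7.14, 7.37 and 7.06, a mean of 7.19 ± 0.16 (SD, n = 3), and lay above the control threshold in 0 of 3 arrays. Its probes gave 69 to 110 at position 5331 and 191 to 215 at position 6323, where the median of the control probes was 69.6 to 73.3 and their 95th percentile 285.0 to 298.6. With 2 probes the array does not show that this gene was silent.

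The spread between replicates was 0.03 to 0.16 (SD, log2) in the 5 glutamate synthase transcripts and 0.10 to 0.62 in the 14 glutamine synthetase transcripts, with medians of 0.08 and 0.28. The median over the 19 transcripts was 0.23, against 0.17 over all transcripts of the array. Without replicate 2 the median over the 19 was 0.07, and that of the whole array also fell, from 0.175 to 0.122. The 4 detected glutamate synthase transcripts had ranges of 0.05 to 0.15, and those of the 13 detected glutamine synthetases were 0.20 to 1.10. With the local median of each array region removed, these ranges were 0.08 to 0.30 and 0.11 to 1.32, so that the families overlapped. Before that removal, of the 6600 detected transcripts with levels from 12.48 to 14.28, the levels these glutamate synthases spanned, 25.1% had a range as small, and their median range was 0.25.

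**Figure D3:**
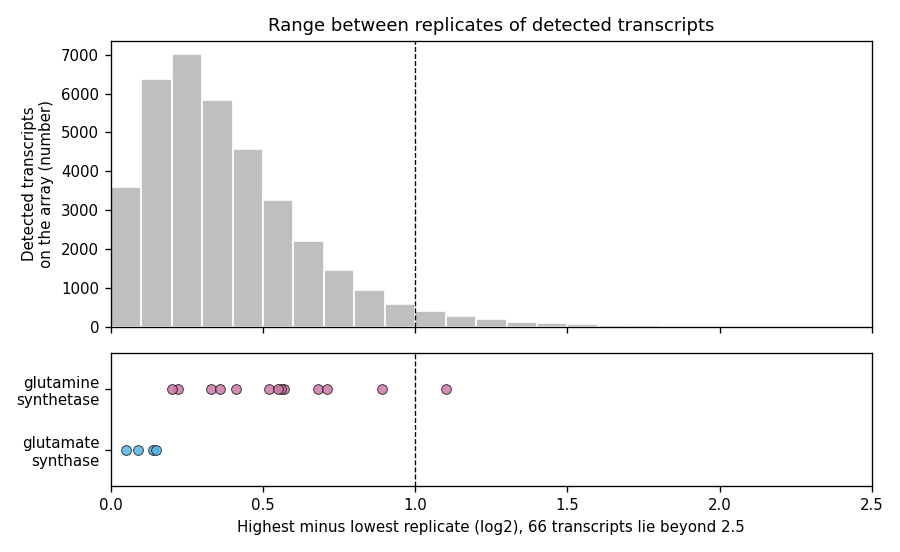
Number of detected transcripts on the array (upper panel, vertical axis) by the highest minus the lowest replicate (log2, horizontal axis), with the 13 glutamine synthetase and 4 glutamate synthase transcripts detected as points in the lower panel and a dashed line at 1, a 2-fold range. The glutamate synthases lie at 0.05 to 0.15, the glutamine synthetases at 0.20 to 1.10, and 66 transcripts of the array lie beyond the axis.

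Other genes of nitrogen assimilation were taken by name, 21 genes with 43 transcripts, and 32 of these were detected, again against 62.6% of the array. Before glutamine synthetase in the pathway, nitrate reductase was detected in 2 of 2 transcripts, nitrite reductase in 5 of 5 and urease in 3 of 4. Replicate 2 was the highest in all 11 of these transcripts, the undetected urease transcript included, against 33.6% of the array. So it was in GS1-5 and GS1-1, but not in gs1-2. The widest range among the detected ones of these 11 was that of nitrite reductase GRMZM2G079381_T04, with 10.61, 12.35 and 10.16. After glutamine synthetase, asparagine synthetase, which takes its nitrogen from glutamine, was detected in 7 of 10 transcripts, and replicate 3 was highest in 5 of these 7, where over all transcripts of the array it was highest in 30.9%. Asparagine synthetase GRMZM2G078472_T03 had 13.64, 13.91 and 14.15. Over the 21 genes replicate 2 was highest in 20 of the 32 detected transcripts. It was highest in 2 of 2 detected transcripts of glutamate dehydrogenase and 4 of 5 of ferredoxins and ferredoxin NADP reductase. In asparagine synthetase it was highest in 1 of 7 and in alanine aminotransferase in 1 of 5. The gene groups are each a few isoforms of 1 to 6 genes, and their order was not tested.

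Of the genes that supply or use the same metabolites, glutamate dehydrogenase gdh1, which interconverts glutamate and 2-oxoglutarate, was detected in 2 of 3 transcripts and ranged over 2-fold in 0. Isocitrate dehydrogenase idh2, of an enzyme that makes 2-oxoglutarate, was detected in its 1 transcript with an SD of 0.12. Ferredoxins and ferredoxin NADP reductase, which carry electrons to ferredoxin-dependent glutamate synthase, were detected in 5 of 10 transcripts. Ferredoxin fdx3 (GRMZM2G053458_T01) had a level of 14.89 ± 0.07 (SD, n = 3). Alanine aminotransferase was detected in 5 of 6 transcripts and glutamate decarboxylase in 2 of 2.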

How the data were processed

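Levels were obtained from 3 arrays of 1 group, Urea+NBPT roots. The authors labelled cDNA with Cy3 and read 1 intensity per probe from the scans in NimbleScan, and the deposited intensities are on a linear scale, apparently quantile normalized, although the methods call such files raw. The arrays normalized together are not given in the sources used here. The labels name RMA. The deposited value table differed from the array files in 0 probes.

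Intensities were corrected with normexp (offset 50), quantile normalized and summarized as log2 values by median polish with R 4.3.3 and limma 3.58.1. The steps were checked on simulated data. No test was made, and 3 arrays limit the precision. The design called for product words to build pathway lists. The reference gene table holds symbols and synonyms only, so these were used, together with identifiers the study names. Ammonium transporters, aspartate aminotransferase and PII gave no gene, and the root marker rth1 had no matching name and was left out.

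All 19 transcripts are named, with each replicate given for the lowest-numbered isoform of a gene and for isoforms ranging over 2-fold, and others were added after seeing values. Members, lists and the counts of probes by highest replicate were chosen with earlier results of these data known. From each pathway list at most the detected transcripts with the highest mean and the widest range are named. The reference table is of another assembly than the array, so no coordinates are given.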

Additional observations from a re-analysis of the deposited data

How the results depend on the processing

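The 17 detected transcripts became 16 at the 99th percentile of the control probes and with the mean of probe values, where GRMZM2G024104_T05 was lost each time. The count stayed 17 in the other alternatives, leaving out replicates included (17 to 17). Leaving out replicates, or asking for at least 2 arrays above the threshold, relaxes the rule and could hardly lower it. The deposited value table and scaling to the same median use nearly the same input, so an unchanged count there says little. The count ranging over 2-fold was 1. It was 2 with a normexp offset of 16 (7.8% of the array), where GRMZM2G024104_T05 was added, and 4 at a 1.5-fold limit (20.8% of the array). When replicates were left out it was 0 to 1 (1.09% to 3.56% of the array). The counts of 1 and 4 of the 19 lay near the shares of the whole array. The count with a replicate more than 1 above the others was 1. It was 2 at a limit of 1.5-fold, for which the share of the array is not given here. When replicates were left out it was 0 to 1, where 0 came without replicate 2. The median SD of 0.23 was 0.0694 to 0.231 when replicates were left out, with the lowest value without replicate 2, and the cause was not tested. With the local median of each array removed on a 12 by 12 grid, added after seeing the data, all 9 probes of gs1-2 were still highest in replicate 3 and all 8 of GS1-5 in replicate 2, and 4 of 5 probes of fgs1 were then highest in replicate 2, against 1 before. The range of fgs1 GRMZM2G036609_T02 rose from 0.09 to 0.30 there, above those of gs1-3 (0.11) and of gs2 GRMZM2G098290_T01 (0.15). The mean level of 18 of 19 transcripts moved by less than its SD under each of 4 alternatives, and of 19 under the others. These others could hardly have given another outcome. Leaving out 1 of 3 arrays cannot well move a mean by its SD, and the deposited value table and scaling to the same median repeat nearly the same input. The detected counts of the 9 pathway lists stayed within 1.5 times of their values throughout. No paired analysis was possible because all arrays belong to 1 group.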

Other observations

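A further cytosolic glutamine synthetase in the reference table, gln5 (GRMZM2G036464), is not among the 9 listed genes and was looked up after the values were seen. GRMZM2G036464_T01 had levels of 11.58, 11.55 and 11.69 in replicates 1, 2 and 3, and GRMZM2G036464_T02 had 12.64, 12.26 and 13.00. Both were detected, and replicate 3 was highest and replicate 2 lowest in each, the order also seen in gs1-2. In GRMZM2G036464_T01 the range was only 0.14, against a median of 0.33 over all transcripts, so its order says little. The table gives gln5 the synonym gs1-4.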
